A study of Mus musculus with 6 samples.

Results

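The genes described here are 8 genes of the mucus that intestinal goblet cells secrete, Muc2, Fcgbp, Zg16, Clca1, Tff3, Agr2, Spink4 and Itln1, among 22180 genes on arrays of sorted mouse intestinal blood endothelial cells. Each was read by the probe set that the platform annotation assigns to that gene symbol alone. Of the 8 genes, 7 had 1 such probe set, and of the 2 for Muc2 the brighter on average was taken.

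The knockout group was 3 arrays from adult Apcfl//fl mice that carried Villin-CreERT2, and the control group was 3 arrays from adult Apcfl//fl mice for which the labels name no Cre and which they call WT. All mice were of a mixed C57BL/6 x 129 background, and both groups carried the floxed Apc alleles and received tamoxifen daily for 5 days before the intestine was taken on day 6. Villin-CreERT2 is a tamoxifen-activated Cre under the promoter of villin, a gene of intestinal epithelium, so Apc was to be removed from epithelial cells and not from the endothelial cells that were measured. The sort kept CD31+ cells and left out cells positive for CD45, EpCAM or gp38. The labels call the replicates biological and give no other detail on animals or pooling. Values are log2 intensities after robust multi-array averaging (RMA), 1 array per replicate.

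Goblet cells are secretory cells of the intestinal epithelium. They release the gel-forming mucin Muc2 together with proteins that cross-link, process or bind the gel, and the resulting layer keeps bacteria away from the epithelial surface. Endothelial cells are not known to secrete this gel, and goblet cells carry EpCAM, which the sort excluded. Which cells the mucus transcripts came from was not tested. In RNA from a sorted population, fewer cells of a type and less RNA per cell cannot be told apart.

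The 8 mucus genes were higher in controls 2 and 3 than on the other 4 arrays, and control 1 lay close to the knockout arrays. The median difference of the 8 genes, knockout minus control, was -1.32 on the log2 scale, against -0.017 over all 15284 genes above background. Background is a log2 value of 4.12, the 90th percentile of the mean values of 1428 olfactory, vomeronasal and taste receptor genes. None of the 8 differences passed an adjusted p of 0.05 in limma over all genes, where 1.48% of genes were called lower and 1.13% higher in the knockout. At an unadjusted p of 0.05 the same fit gave 6 of the 8 genes as lower, against 9.23% of all genes. Among these, Zg16, Agr2 and Itln1 had knockout means below background and entered the fit through control values. Such entry favours a lower knockout, so this count is no support for a change. Leaving out control 1, the array seen to lie with the knockouts, the limma fit called 6 of the 8 genes lower, against 1.67% of all genes. It also called 27 of 30 enterocyte markers lower. Control 1 was picked from these same values and was the lowest control in all 8 genes. Its removal was bound to widen the differences, so the fits without it, here and below, are no support for a change. Leaving out any of the other 5 arrays gave 0 of the 8 in limma, and without control 3 the median difference was -0.74.

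All 8 genes had a mean over the 6 arrays above background and entered the fit. For Zg16, Agr2 and Itln1 the knockout mean lay below background, so they entered it through control values. Knockouts 1 and 2 had 5 of the 8 genes above background each, knockout 3 had 6, control 1 had 7, and controls 2 and 3 had 8. In all 8 genes the lower of controls 2 and 3 exceeded the highest of the other 4 arrays, a pattern found in 8.46% of all genes. In 5 of them, Zg16, Agr2, Spink4, Tff3 and Clca1, it did so by at least 1 on the log2 scale, against 0.451% of all genes. A step of that size was also found in 21 of 30 enterocyte markers and 6 of 22 markers of all intestinal epithelium. It was thus not particular to the mucus genes. These counts were made after the values had been seen and describe the arrays without a test. Entry through control values favours high controls in Zg16, Agr2 and Itln1, so the counts are no support for a change.

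**Figure D1:**
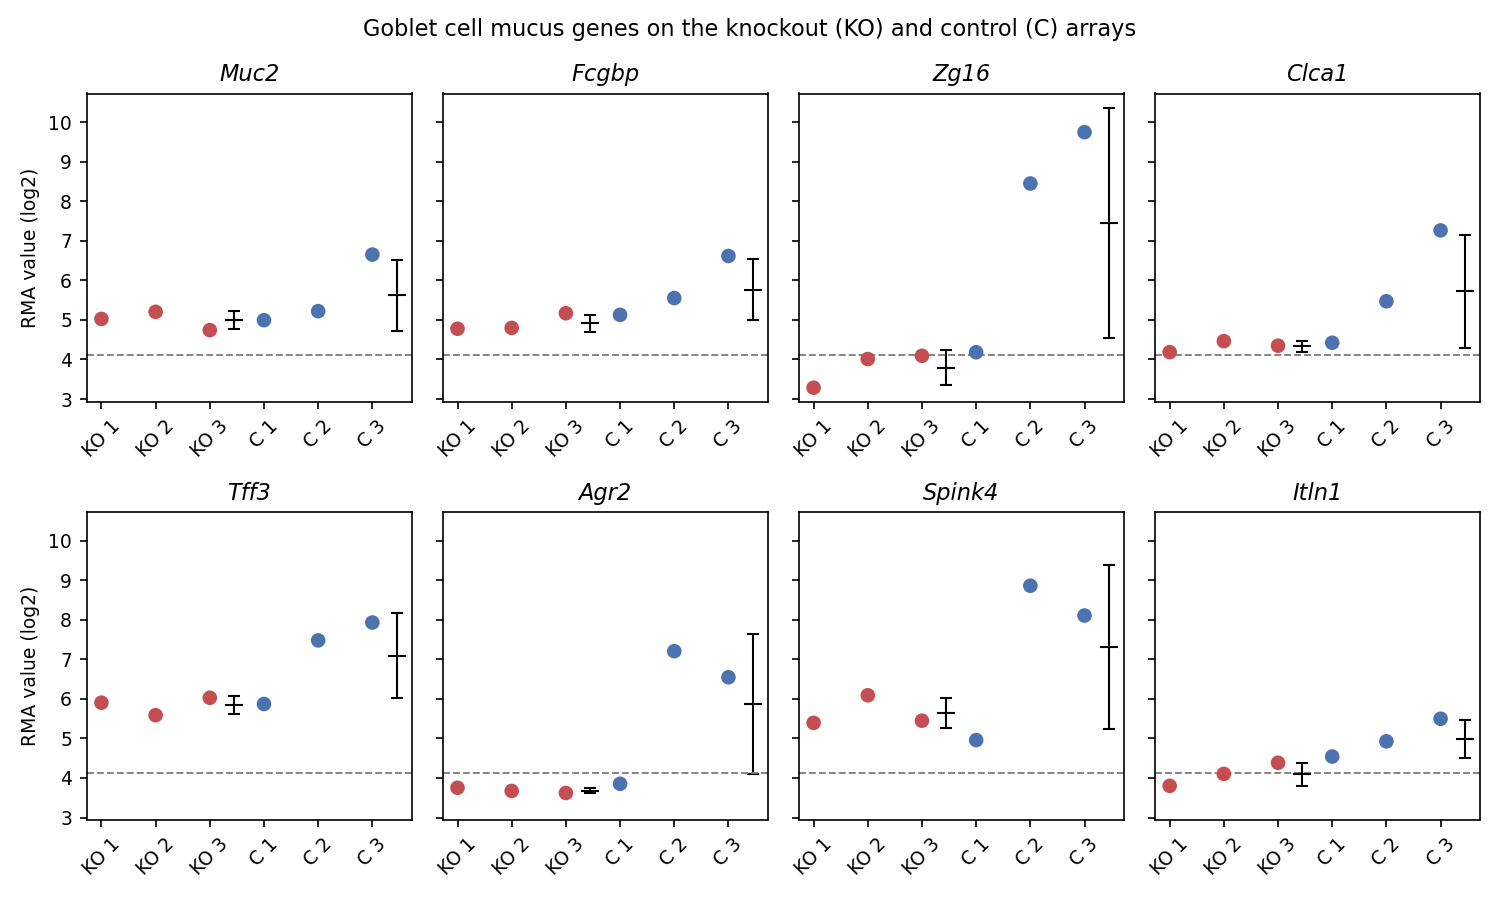
RMA values (log2, vertical axis) of the 8 mucus genes on the 3 knockout (KO, red) and 3 control (C, blue) arrays, with the mean and SD of each group at its right (black, n = 3) and the background level of 4.12 as a dashed line. Controls 2 and 3 are above the other 4 arrays in all 8 panels, from a gap of 0.017 in Muc2 to 4.27 in Zg16.

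The regulatory sequences of Muc2 and Agr2 are shown because these genes, whose products are the gel's mucin and the enzyme that helps to fold it, had the smallest and a large gap between controls 2 and 3 and the other arrays. Each is the 250 bases before the RefSeq gene start (build GRCm38.p6), on the gene's own strand, 5′ to 3′. Capitals mark matches, on either strand, to 4 short motifs: TTTATG (CDX2), TGTTTAC (FOXA), CAGCTG (an E-box bound by ATOH1) and CACCC (KLF). The windows are chr7:141690090-141690339 (+) for Muc2 and chr12:35992675-35992924 (+) for Agr2.
Muc2: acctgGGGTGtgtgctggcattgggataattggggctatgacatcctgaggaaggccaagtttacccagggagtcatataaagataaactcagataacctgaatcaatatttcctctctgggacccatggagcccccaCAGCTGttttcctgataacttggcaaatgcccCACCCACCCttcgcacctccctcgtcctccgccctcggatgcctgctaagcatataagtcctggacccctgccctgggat
Agr2: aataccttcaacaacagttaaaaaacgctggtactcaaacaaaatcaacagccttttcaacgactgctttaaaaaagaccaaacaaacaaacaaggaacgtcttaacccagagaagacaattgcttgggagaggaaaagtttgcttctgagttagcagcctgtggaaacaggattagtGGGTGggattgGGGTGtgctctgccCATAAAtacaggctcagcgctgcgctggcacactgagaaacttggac

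The promoter table matched 4 of the 8 mucus genes, Muc2, Agr2, Fcgbp and Itln1. CAGCTG occurred in the Muc2 window, 112 to 107 bases before the start, and in that of Fcgbp, against 13% of 32851 promoters. TTTATG occurred as its reverse complement in the windows of Agr2, 47 to 42 bases before the start, and Itln1, against 10.8%. CACCC occurred in all 4 windows, against 52% of promoters, and the neighbouring pair of copies in Muc2 shares 1 base. TGTTTAC matched none of the 4 windows and 3.17% of promoters. No other matches overlapped. These are matches of letters and no evidence of binding.

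Muc2 encodes the mucin that forms the gel. Its probe set (17484991) read 5.03, 5.20 and 4.74 on knockout arrays 1 to 3 and 4.99, 5.22 and 6.65 on control arrays 1 to 3. Only control 3 stood apart, control 2 being 0.017 above the highest knockout. The group means were 4.99 ± 0.23 (SD, n = 3) in the knockout and 5.62 ± 0.90 (SD, n = 3) in the control. The difference was -0.63 ± 0.38 (standard error of the limma fit; 95% interval -1.49 to 0.23, adjusted p = 0.467). A second Muc2 probe set read 4.17, 4.01 and 3.95 in the knockout and 4.17, 4.76 and 5.85 in the control, so there control 2 was separated from the knockouts as well. Without control 3 the Muc2 difference was -0.12 ± 0.19 (adjusted p = 0.857 by limma), and without control 1 it was -0.95 ± 0.36 (adjusted p = 0.287), neither passing.

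Fcgbp encodes a large secreted protein with von Willebrand D domains that is bound to Muc2 in the gel. It read 4.78, 4.80 and 5.17 in the knockout and 5.13, 5.55 and 6.62 in the control. Control 1 lay inside the knockout range and control 3 was the highest. The difference was -0.85 ± 0.33 (95% interval -1.60 to -0.099, adjusted p = 0.24 by limma), and without control 1 it was -1.17 ± 0.30 (adjusted p = 0.0944). Without control 3 it was -0.42 ± 0.21 (adjusted p = 0.429 by limma).

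Zg16 encodes a lectin-like protein of the mucus that binds Gram-positive bacteria. It showed the widest spread of the 8 genes, reading 3.29, 4.01 and 4.09 in the knockout and 4.18, 8.45 and 9.75 in the control. The 3 knockout arrays were below background and control 1 was just above it, so the groups did not overlap, but control 1 was nearer to the knockouts than to controls 2 and 3. The control mean was at least 10.1-fold above the knockout mean, counting arrays below background at that level. The fitted difference was -3.66 ± 1.14 (adjusted p = 0.147 by limma). Without control 1 the gene passed (adjusted p = 0.000169), and the fold was at least 31.5, while without control 2 or control 3 it did not (adjusted p = 0.307 and 0.331).

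Clca1, known as Gob-5 in older work, encodes a secreted metalloprotease that is abundant in the mucus layer. Its annotation was checked by gene identifier, since the symbol Clca1 was once used for the gene now called Clca3a1. It read 4.19, 4.46 and 4.35 in the knockout and 4.42, 5.47 and 7.26 in the control. Control 1 was inside the knockout range, and controls 2 and 3 differed from each other by 1.79. The difference was -1.39 ± 0.57 (95% interval -2.68 to -0.097, adjusted p = 0.265 by limma), and without control 1 it was -2.03 ± 0.43 (adjusted p = 0.0475). Without control 3, the brightest array for Clca1, it was -0.61 ± 0.29 (adjusted p = 0.411 by limma).

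Tff3 encodes the trefoil factor peptide of goblet cells, which takes part in epithelial repair. It was above background on all 6 arrays, reading 5.90, 5.59 and 6.03 in the knockout and 5.87, 7.48 and 7.93 in the control. Again control 1 was inside the knockout range. The difference was -1.25 ± 0.44 (95% interval -2.25 to -0.25, adjusted p = 0.195 by limma). Without control 1 Tff3 was 3.64-fold lower in the knockout (-1.86 ± 0.20, adjusted p = 0.00189), and without control 3 its difference was -0.83 ± 0.41 (adjusted p = 0.442 by limma).

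Agr2 encodes a protein disulfide isomerase of the endoplasmic reticulum that is needed for Muc2 production. It read 3.75, 3.67 and 3.62 in the knockout and 3.85, 7.20 and 6.55 in the control. It was below background on 4 arrays, control 1 among them, and above it only in controls 2 and 3. The groups did not overlap, although control 1 was 0.17 above the knockout mean, against 3.52 for control 2 and 2.86 for control 3. The control mean was at least 3.57-fold above that of the knockout (fitted difference -2.19 ± 0.70, adjusted p = 0.154 by limma). Without control 1 it passed (adjusted p = 0.00015), and the fold was at least 6.75, while without control 2 or control 3 it did not (adjusted p = 0.314 and 0.358).

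Spink4 encodes a Kazal-type protease inhibitor made by goblet cells. It read 5.39, 6.09 and 5.45 in the knockout and 4.96, 8.86 and 8.11 in the control. Control 1 was the lowest of the 6 arrays, and it is the 1 gene of the 8 for which control 1 lay below every knockout. The difference was -1.66 ± 0.82 (95% interval -3.52 to 0.19, adjusted p = 0.362 by limma). Without control 1 it was 7.16-fold lower in the knockout (-2.84 ± 0.27, adjusted p = 0.00108), and without control 2 the difference was -0.89 ± 0.75 (adjusted p = 0.636 by limma).

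Itln1 encodes intelectin, a lectin that binds microbial sugars and is made by both goblet and Paneth cells. It read 3.80, 4.10 and 4.38 in the knockout and 4.54, 4.93 and 5.50 in the control. Every control was above every knockout, and control 1 was again the lowest control. The control mean was at least 1.72-fold above that of the knockout. This gene had the smallest adjusted p of the 8 (-0.89 ± 0.25, adjusted p = 0.106 by limma), and it passed without control 1 (adjusted p = 0.0449) but not without control 2 or control 3 (adjusted p = 0.197 and 0.244). It also passed in limma with the replicate number as a block (adjusted p = 0.0327), a fit that called 1.54% of all genes lower. The labels do not say that the replicate numbers pair arrays, and the deviations of same-numbered arrays showed little correlation. Strain 129 carries intelectin genes that C57BL/6 lacks, and whether this probe set reads them too was not tested.

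Groups that did not overlap, with the knockout lower, were thus found for 3 of the 8 genes (Zg16, Agr2 and Itln1), against 12.3% of all genes. All 3 entered the fit through control values, which favours such a separation, so this count is no support for a change. The same separation was found in 24 of 30 enterocyte markers and 15 of 22 markers of all intestinal epithelium. The spread of the controls was the larger one: the mean of the 8 genes around each gene's group mean had an SD of 1.33 over the controls and of 0.13 over the knockouts. Against control 1 alone, a comparison chosen after the data had been seen, the differences ran from -0.45 for Itln1 to 0.69 for Spink4. With a lone control array, this comparison cannot show whether a mucus gene changed. Controls 2 and 3 did not rank alike for all genes. Muc2, Fcgbp, Zg16, Clca1, Tff3 and Itln1 were highest in control 3, by 0.45 to 1.79 over control 2. Agr2 and Spink4 were highest in control 2, control 3 minus control 2 being -0.66 and -0.75.

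**Figure D2:**
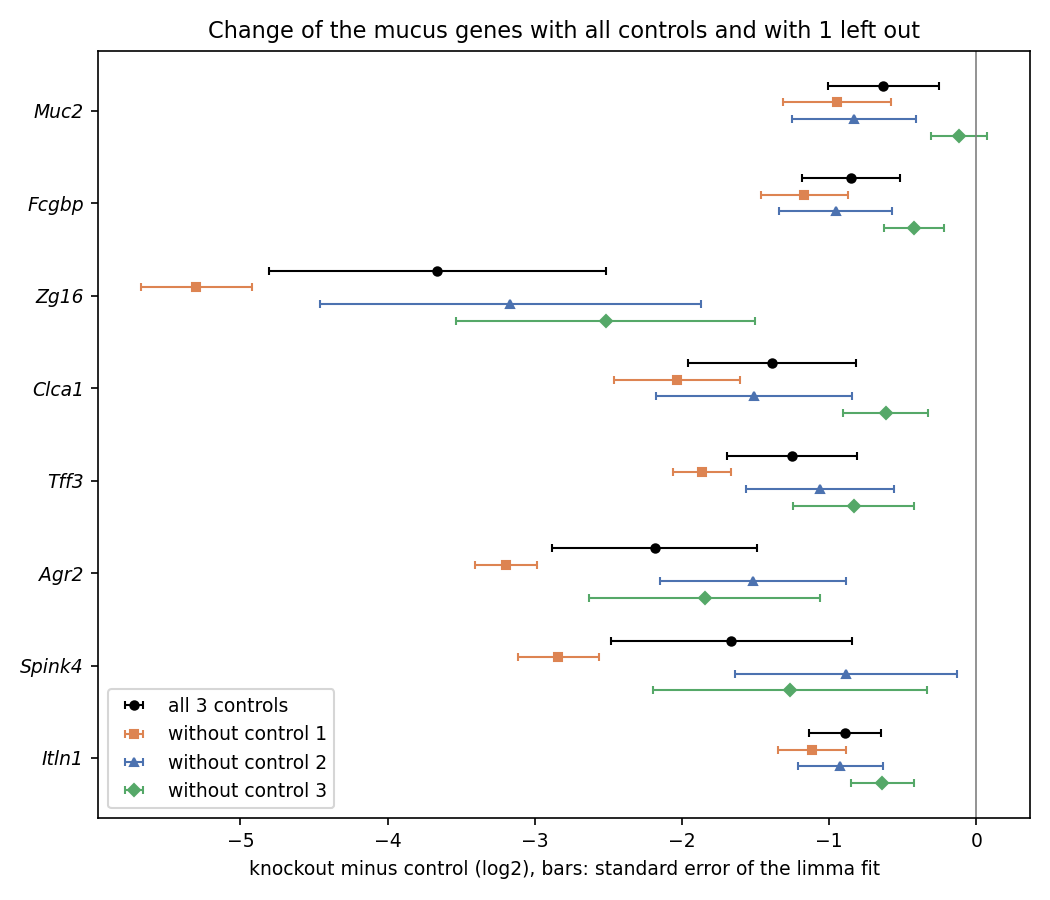
Knockout minus control (log2, horizontal axis) of the 8 mucus genes from the limma fit with all 3 controls (black circles) and without control 1 (orange squares), control 2 (blue triangles) or control 3 (green diamonds); bars are standard errors of the fit. All values are below 0, Tff3 running from -1.86 without control 1 to -0.83 without control 3; the sizes for Zg16, Agr2 and Itln1 rest on knockout values below background and are not exact.

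Transcription factors of the goblet lineage were examined next. Of 12 such genes, 11 were above background and 0 passed in limma (2 at an unadjusted p of 0.05, both lower), with a median change of -0.14. Here and for the lists below, counts at an unadjusted p of 0.05 take both directions, whereas the 9.23% of all genes given above covers lower genes only. The share of all genes in both directions is not given here. These counts therefore do not show whether a list differed more often than genes at large. Atoh1, which commits cells to the secretory lineage, read 4.53, 4.75 and 4.58 in the knockout and 4.84, 4.90 and 5.21 in the control (-0.36 ± 0.15, adjusted p = 0.263 by limma). Its controls were all above its knockouts, with control 1 near control 2. Spdef, which drives goblet cell maturation, read 5.49, 5.54 and 5.44 in the knockout and 5.91, 5.39 and 5.41 in the control. Here control 1 was the highest array and controls 2 and 3 were the lowest. Klf4, a factor that goblet cells share with endothelium, averaged 10.8 on knockout and 10.9 on control arrays (adjusted p = 0.68 by limma).

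Secretory pathway and glycosylation genes, which goblet cells use to make and release mucin but which other cells express too, had medians near that of all genes. Of 26 secretory pathway genes, 18 were above background and 0 passed in limma, with a median change of 0.041. The 2 at an unadjusted p of 0.05, Qsox1 and Rab27a, were higher in the knockout. Xbp1, a factor of the unfolded protein response, differed by 0.17 ± 0.075 (adjusted p = 0.318), and Vamp8, a vesicle fusion protein, by -0.057 ± 0.10 (adjusted p = 0.834). Of 28 glycosylation genes, 25 were above background and 0 passed in limma, with a median of -0.071. Of the 3 at an unadjusted p of 0.05, Galnt12 was higher and St3gal6 and B4galnt1 were lower. The nearest to passing was St3gal6, a sialyltransferase gene (-0.39 ± 0.088, adjusted p = 0.0576).

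Among other mucins and goblet cell peptides, 24 of 27 listed genes were on the array and 16 were above background. Muc13, a membrane-bound mucin of the epithelial surface, was the 1 gene of this list to pass, in the lower direction. It read 4.38, 4.55 and 4.66 in the knockout and 5.90, 8.11 and 7.38 in the control (-2.60 ± 0.45, adjusted p = 0.0239 by limma). Control 1 stood above all knockouts for Muc13, which was not so for Muc2. Guca2a, the guanylin gene, read 5.91, 7.54 and 6.36 in the knockout and 7.38, 10.2 and 9.45 in the control (-2.42 ± 0.66, adjusted p = 0.103). Ang4, an angiogenin with antimicrobial activity, read 3.92, 3.62 and 4.05 in the knockout and 3.75, 5.17 and 5.53 in the control (adjusted p = 0.263). In Ang4 control 1 was inside the knockout range, as in 4 of the mucus genes. The list's median change was -0.047, and 4 of its 16 genes differed at an unadjusted p of 0.05 in limma.

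Among markers of other epithelial cells, those of enterocytes fell most often, and the other lists held few or no called genes. Epcam, which encodes the surface protein used to exclude epithelium, read 3.74, 3.75 and 3.81 in the knockout and 3.87, 7.20 and 6.24 in the control (adjusted p = 0.172 by limma). It was below background on the same 4 arrays as Agr2. Of 30 enterocyte markers above background, 19 were lower and 1, the guanine deaminase gene Gda, was higher, with a median change of -1.82. At an unadjusted p of 0.05 in limma 29 of the 30 differed. The mean level of the enterocyte markers ran from 5.02 to 5.40 on the knockout arrays and was 6.23, 7.96 and 7.52 on control arrays 1 to 3. Of 22 markers found in all intestinal epithelium, 2 were lower (Lgals4 and Phgr1) and 0 higher, with a median of -0.62. Of these 22, 21 had a change below 0, and 14 differed at an unadjusted p of 0.05 in limma. Of 11 Paneth cell markers, Itln1 among them, 0 passed in limma (5 at an unadjusted p of 0.05), with a median of -0.47. Of 8 enteroendocrine and 12 tuft cell markers 0 passed in limma (2 and 0 at an unadjusted p of 0.05), with medians of -0.19 and -0.023. Of 19 crypt or stem cell markers 1 (Tgfbi) was lower (5 differed at an unadjusted p of 0.05 in limma), with a median of -0.070. The part of carried-over epithelial RNA in the differences of the mucus genes was not tested.

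Control 1 was placed differently by the lists. Around the mean of the controls, the mean of the 8 mucus genes was -1.71, -1.49 and -1.50 on the knockout arrays and -1.48, 0.42 and 1.07 on the control arrays, so control 1 was level with the knockouts. The enterocyte mean was -2.21, -1.83 and -2.15 on the knockout arrays and -1.01, 0.73 and 0.28 on the control arrays, which put control 1 between the knockouts and the other controls. The Paneth mean put control 1, at -0.88, below the knockouts (-0.75 to -0.40), but its members differed: control 1 minus the knockout mean was -2.63 for Defa22 and -1.47 for Defa21, and 0.55 for Defa24, 0.40 for Defa26, 0.45 for Itln1 and 0.25 for Sox9. Control 3 exceeded control 2 in the mucus mean, and control 2 exceeded control 3 in the enterocyte mean. These placements were not tested against each other.

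**Figure D3:**
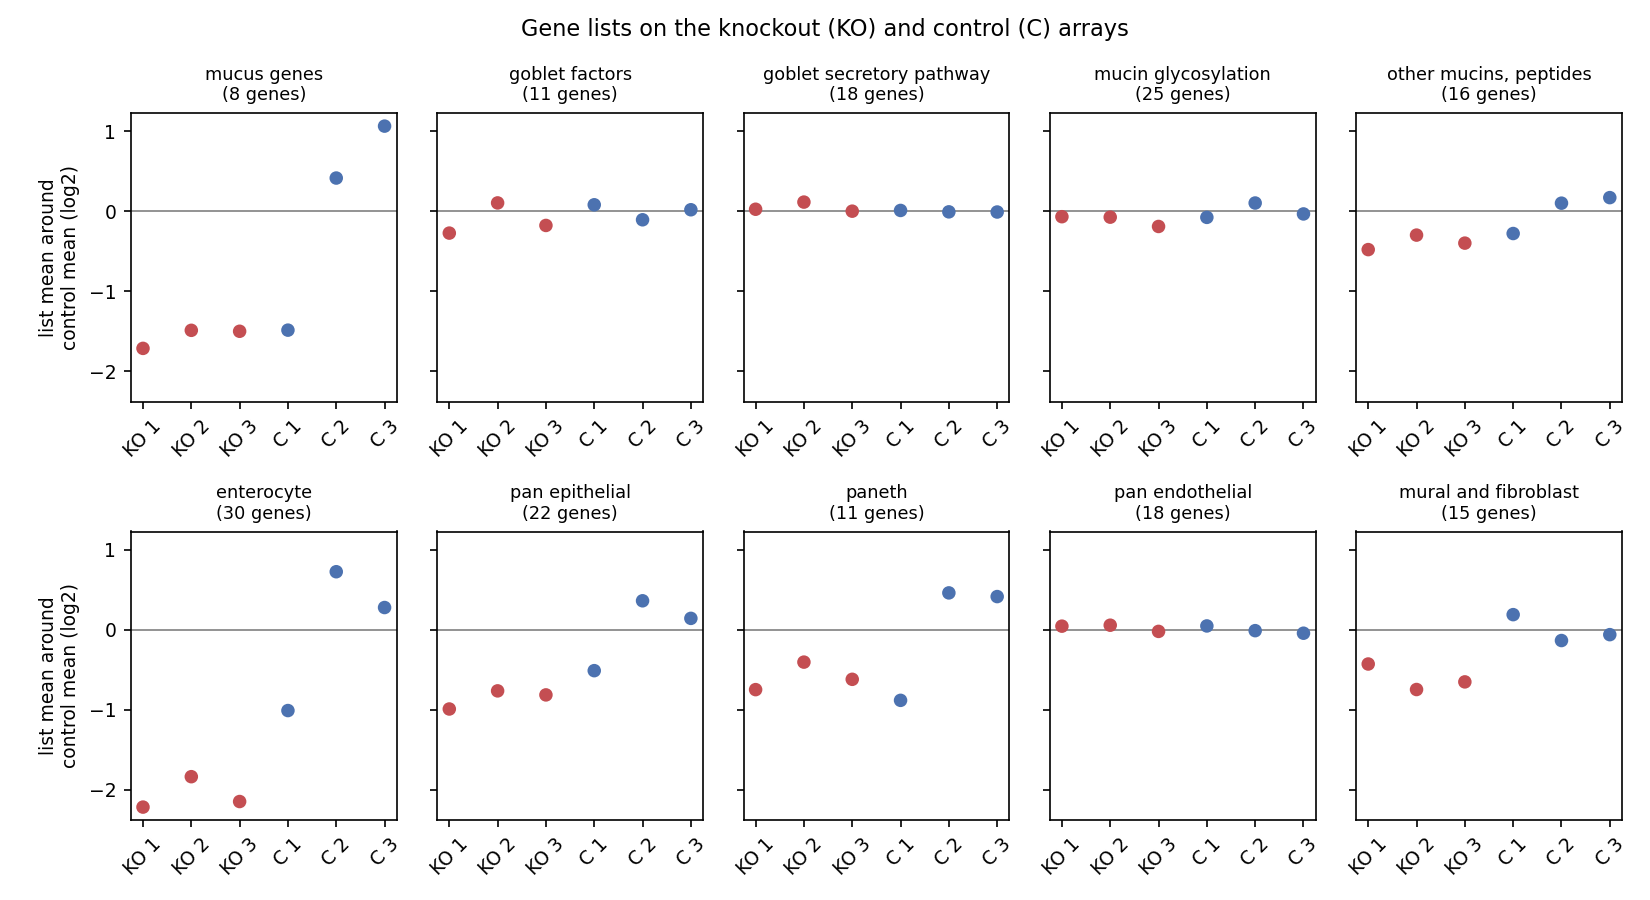
Mean of each gene list around its control mean (log2, vertical axis) on the 3 knockout (KO, red) and 3 control (C, blue) arrays, with the number of genes above background in brackets. Control 1 is at -1.48 for the mucus genes, level with the knockouts, and at -1.01 for the enterocyte markers, above them; the pan-endothelial list stays between -0.041 and 0.059.

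Relative to the enterocyte mean of the same array, Muc2, Fcgbp and Itln1 were higher on every knockout than on any control, as were 96.7% of all genes, and the other 5 genes overlapped between the groups. With the enterocyte mean as a covariate in the fit, the coefficient of the knockout was above 0 for 6 of the 8 genes and Spink4 passed as higher (3.03 ± 0.31, adjusted p = 0.03 by limma), where 0.0458% of all genes were called higher. Spink4 was also the gene with control 1 lowest. The enterocyte mean ran from 5.02 to 5.40 on the knockout arrays and from 6.23 to 7.96 on the control arrays, with no overlap. The coefficients at an equal enterocyte mean are therefore extrapolations and do not say how the mucus genes changed.

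The cells carried the markers of endothelium on every array. Pecam1, the gene for CD31, averaged 11.4 in both groups. Of 18 pan-endothelial genes, all above background on the 6 arrays, 2 were higher (Eng and Cd34) and 1 was lower (Cldn5), with a median of 0.071. At an unadjusted p of 0.05 in limma 9 of the 18 differed. Ptprc, the gene for CD45, averaged 4.14 on knockout and 4.46 on control arrays, and Pdpn, the gene for gp38, 5.11 and 5.42. Of 16 leukocyte genes 0 passed in limma (5 at an unadjusted p of 0.05, Mzb1 among them being higher). Of 15 mural and fibroblast genes 7 were lower in the knockout (11 differed at an unadjusted p of 0.05 in limma), with a median of -0.76. For that list control 1 was the highest control, at 0.19, unlike for the mucus genes. Apc differed by -0.16 ± 0.14 (adjusted p = 0.65 by limma), and since it was to be deleted in another cell type it does not check the labels.

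The genes whose values ran most like the mean of the mucus genes were sought among 174 genes above background with a range of at least 2 over the 6 arrays. The 10 most alike, by Pearson's r over the 6 arrays, were Enpp7, 2010106E10Rik, Hnf4g, Cldn7, Fabp6, Cdh17, Pls1, Myo1a, Naaladl1 and Alpi, with r from 0.953 to 0.981. Cldn7 and Cdh17 are on the pan-epithelial list and Alpi on the enterocyte list. These r describe a step between controls 2 and 3 and the other 4 arrays and carry no p. Fabp6, the gene for the bile acid-binding protein of the ileum, read 6.31, 5.03 and 5.71 in the knockout and 5.31, 11.3 and 11.3 in the control. Control 1 was inside the knockout range for Fabp6, as it was for 4 of the 8 mucus genes.

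**Figure D4:**
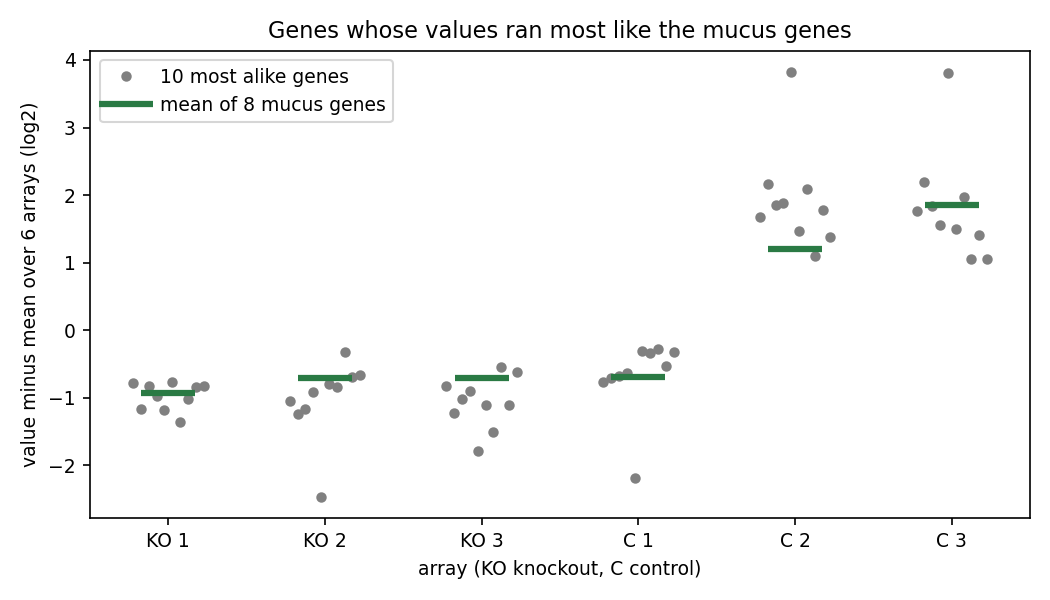
Values minus each gene's mean over the 6 arrays (log2, vertical axis) of the 10 genes most like the mucus genes (grey points) and the mean of the 8 mucus genes (green bars) on the knockout (KO) and control (C) arrays. The green bars are between -0.93 and -0.70 on the knockout arrays and control 1, at 1.20 in control 2 and at 1.85 in control 3.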

How the data were processed

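The arrays, 3 knockout and 3 control, were of the Affymetrix design Mouse Gene 2.0 ST. The deposited values are log2 intensities per probe set, made by the authors with RMA in the oligo package, per the submitters' processing notes (versions not given in the sources used here); RMA corrects background, quantile-normalizes and summarises probes, which makes array medians alike (4.77 to 4.81). Arrays have no read depth, and their number limits the precision.

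Of 41345 probe sets, 23521 had 1 gene symbol in the platform annotation, 1814 several and 16010 none; the last 2 kinds were left out. The highest-mean probe set stood for each gene. The test was limma 3.58.1, run in R 4.3.3 (lmFit, eBayes with trend, two-sided), Benjamini-Hochberg adjusted over 15284 genes above background; ± after a difference is its standard error. The test was also run on 10 simulations of this comparison, with 200 changed genes among 15284. It recovered 74.2% of changes of 1 (log2) and 96.4% of changes of 2, with 4.59% false calls. These rates are over genes at large, and the median standard error of the 15284 genes was 0.146. Standard errors of the 8 mucus genes ran from 0.25 for Itln1 to 1.14 for Zg16. Recovery of changes in genes that vary so much was not tested.

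The mucus genes, lists and tests were chosen with earlier results of these data known. Named genes were the 8 members, the 4 smallest p and 3 highest means of each list, the sort markers, Apc and the 10 most alike genes, of which the text gives a selection. Alternatives covered filter, normalization, probe sets, variance model, weights, replicate block, covariate, threshold and each array left out.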

Additional observations from a re-analysis of the deposited data

How the results depend on the processing

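All 8 mucus genes stayed lower in the knockout, and 0 passed in limma, under both changed filters (the stricter one removed Agr2 and Itln1), both normalizations, the mean of all probe sets, no variance trend, array weights and a threshold of 0.1. With each array left out in turn, 0 to 6 passed, the 6 without control 1, and the median change ran from -1.95 to -0.74. With the replicate block 1 passed (Itln1) and 394 genes in all. Deviations of same-numbered arrays showed little correlation (-0.020, -0.0077 and 0.039), and the labels do not say whether the numbers pair arrays. With the enterocyte covariate 1 passed and the median became 0.66. The changes became 0.21 for Muc2, 0.76 for Tff3, 2.11 for Zg16, 0.56 for Clca1, 1.67 for Agr2 and 3.03 for Spink4. The covariate did not overlap between the groups, so these values are extrapolations, and the cause of the reversal was not tested. Against control 1 alone Spink4 changed by 0.69 (cause not tested). Over all genes, 399 passed (173 higher, 226 lower), against 463 with median-centred arrays (305 higher, 158 lower), 139 without the trend, 11 with the covariate, 52 against control 1 alone, 768 at 0.1 and 88 to 380 with 1 array left out.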

Other observations

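The alpha-defensin genes of Paneth cells, whose probe sets can read near-identical copies, did not place control 1 alike. Defa21 read 8.13, 8.89 and 8.15 on the knockout arrays and 6.92, 10.4 and 9.79 on the control arrays, and Defa22 read 7.46, 9.63 and 7.62 and then 5.61, 10.2 and 9.90. Control 1 was the lowest of the 6 arrays for both, as for Spink4. For Defa24, at 7.61, 8.39 and 8.26 and then 8.63, 9.96 and 9.89, and for Defa26, at 5.00, 5.07 and 5.22 and then 5.50, 6.60 and 6.43, control 1 was above every knockout. None of the 4 passed with all controls (adjusted p from 0.067 to 0.921 by limma). Without control 1, Defa21, Defa24 and Defa26 passed as lower (adjusted p from 0.00275 to 0.00941) and Defa22 did not (adjusted p = 0.154).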
